A study of Danio rerio with 4 samples.

Results

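The peaks described here are all CTCF peaks on zebrafish chromosome 7 in a list of peaks called on combined ChIP-seq replicates of whole embryos at 24 hours post fertilisation (24 hpf, prim-5). They were chosen by chromosome name alone and number 1645 of the 37625 peaks in the list, or 4.37%. A further 34895 peaks lie on the other 24 chromosomes, and 1085 on unplaced scaffolds were not compared, since nothing ties them to a chromosome. Chromosome 7 was picked with its length and its low peak density known, so both are given as descriptions and not tested. End density, spacing, long intervals, windows without a peak, close pairs, isolated peaks and the covered share depend in part on density. Their places among the chromosomes are therefore descriptions too, and not separate findings.

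The list came from 2 ChIP libraries, with 2 libraries of input DNA made from the same chromatin. All 4 libraries carry the strain AB and the genotype ctcf{HPSH}; the ChIP used an antibody against the HA epitope, which recognises only CTCF made from the tagged allele. Parents had 1 tagged and 1 wild-type ctcf allele, and each replicate pooled embryos of independent crosses. The signal is therefore an average over all cell types of many embryos, and the share of embryos with the tag is not given in the sources used here. No value per replicate and no depth enters the list, so nothing below measures the spread between embryos. Where an SD is given, it is the spread over the other 24 chromosomes (n = 24), and intervals on counts (exact Poisson or binomial, at the 95% level) cover counting error only. Intervals on medians were read from the ordered values by a binomial rule at the same level. They treat the peaks, distances or bins of 1 list as independent, although peaks lie in groups and neighbouring bins are alike.

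CTCF is a zinc finger protein that recognises a long DNA motif. It halts loop extrusion by the ring-shaped cohesin complex, and in vertebrates many borders of topologically associating domains lie at CTCF sites. The places of sites along a chromosome bear on where such borders can lie, so a peak map is commonly read by its density, its spacing and its empty intervals. Borders were not measured here. Genes, motifs and repeats under the peaks were not analysed here, because no sequence or annotation of danRer10, the build of the coordinates, was used. All positions below are on danRer10, counted from 1.

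Chromosome 7 was long and thinly covered with CTCF peaks. Its peaks spanned 74.1 Mb, from the first base to the end of the last peak, at 22.2 peaks per Mb (interval 21.1 to 23.3). The other 24 chromosomes held 28.2 ± 5.06 peaks per Mb. Only chromosome 4 was longer (76.6 Mb) and only chromosome 4 was sparser (14.6 per Mb). Chromosomes 9 (22.3 per Mb) and 5 (22.5 per Mb) were nearest in density and fell inside the interval of chromosome 7. The peaks of chromosome 7 together covered 519 kb, or 0.701% of its span, against 0.931 ± 0.169% on the other chromosomes.

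**Figure D1:**
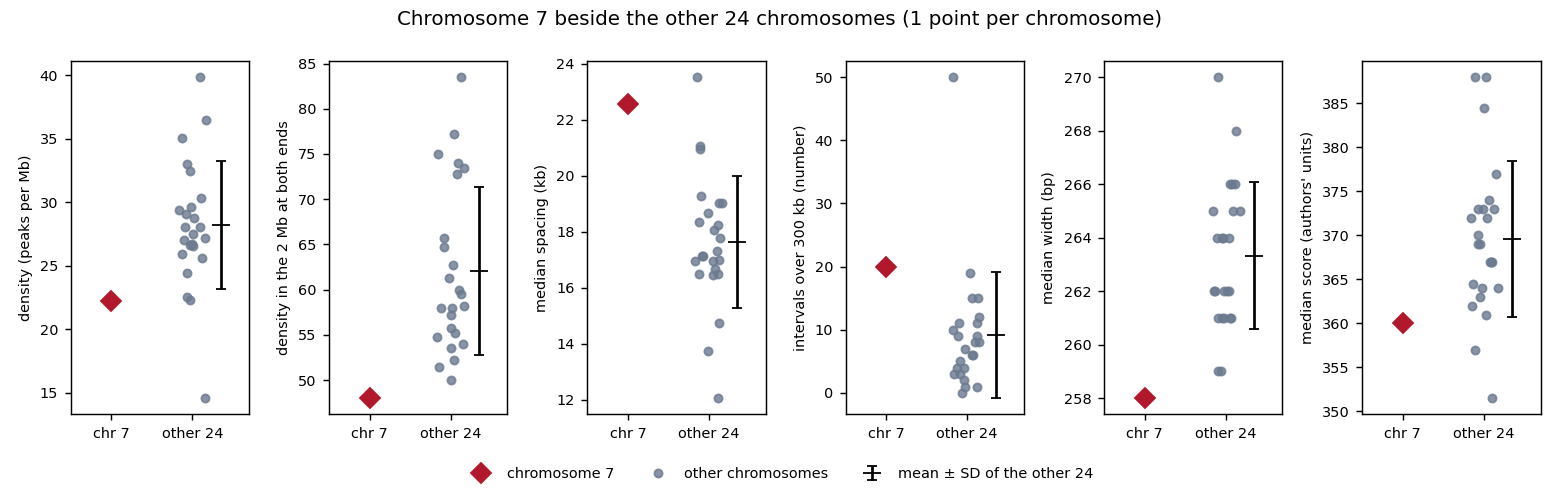
Each panel plots 1 measure of the peaks, with chromosome 7 as a red diamond, the other 24 chromosomes as grey points and their mean ± SD as a black bar. Chromosome 7 lay below every other chromosome in the density of its 2 Mb ends (48.0 peaks per Mb) and in median width (258 bp), and above all but 1 in median spacing (22.6 kb) and in intervals over 300 kb (20).

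The left end of chromosome 7 was sparse beside the left ends of the other chromosomes. Its first peak (28448 to 28686, score 319) was followed by 166 kb without a peak, and the next stood at 194228 to 194438 with a score of 332. On each of the other 24 chromosomes the second peak came sooner, at 71902 at the latest (chromosome 23). The 3 peaks that came next began at 247612, 315306 and 387142, each 53.4 to 71.9 kb from the peak before it. The first 250 kb held 3 peaks. The same stretch of the other chromosomes held 32.2 ± 15.0, and at least 8. Measured from the first peak instead of the first base, the numbers were again 3 on chromosome 7 and at least 8 elsewhere. Among the 18270 highest-scoring peaks chromosome 7 had 1 in the first 250 kb from base 1 and at least 5 elsewhere. Counted from the first peak of that set, which on chromosome 7 begins at 247612, it had 7 and at least 6 elsewhere. It was not the lowest in that window, but the window starts to the right of the 166 kb without a peak and leaves that stretch out. Assembly gaps in this stretch and the placing of reads there were not analysed here.

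The outermost part of the right end held more peaks than the mean of the others, by less than 1 SD. Its last 250 kb held 30 peaks, against 20.8 ± 11.3 on the other chromosomes, 19 of which had fewer. The last 5 peaks, from 74051231 to 74077993, lay 3.19 to 12.4 kb apart. Their scores were 331, 327, 198, 673 and 392, so that 1 of the 5 stood well above the chromosome's median of 360. The right end of each chromosome is set by its last peak, whereas the left end is the first base, which favours the right end slightly on every chromosome.

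Over 2 Mb at each end, the left end of chromosome 7 held 69 peaks (34.5 per Mb, interval 26.8 to 43.7) and the right end 123 (61.5 per Mb, interval 51.1 to 73.4). The left count was 0.561 of the right, and left peaks made up 35.9% of the 192 (interval 29.2 to 43.2%; exact binomial test against equal counts, two-sided p = 0.00012). The test treats peaks as independent, although they lie in groups. With peaks within 10 kb joined, the ends held 40 and 58 (exact p = 0.085), and among the 18270 highest-scoring peaks 47 and 67 (exact p = 0.075), and neither passed 0.05. Unequal ends were common. The same test gave p under 0.05 on 12 of the other 24 chromosomes, 3 chromosomes had a larger imbalance than chromosome 7, and the left end was the lower on 12 of 24.

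With the low left end, the 2 ends of chromosome 7 had a joint density of 48.0 peaks per Mb (interval 41.5 to 55.3). This was below each of the other 24 chromosomes (62.0 ± 9.28, at least 50.0), but the interval reaches into their range. The left end alone, at 34.5 per Mb, was set against 62.6 ± 16.7 elsewhere and exceeded only that of chromosome 24. The right end, at 61.5 per Mb, lay at the mean of the others (61.4 ± 13.1). Among the 18270 highest-scoring peaks the joint end density of chromosome 7 was 28.5 per Mb and 2 other chromosomes were lower. The rest of chromosome 7 held 1453 peaks, or 20.7 per Mb, against 25.4 ± 4.78 elsewhere. Here 3 chromosomes were lower, namely 4 (11.8), 5 (20.4) and 9 (20.1). The ends of chromosome 7 were thus 2.32 times as dense as its rest. The other chromosomes had a ratio of 2.55 ± 0.745 (2.42 ± 0.414 without chromosome 4), and 10 of the 24 had a smaller one. This place was not stable. Among the 18270 highest-scoring peaks the ratio was 2.96, against 2.99 ± 1.09, and 15 chromosomes had a smaller one. With peaks merged within 10 kb it was 1.67, against 1.61 ± 0.359, and 17 had a smaller one. The ratio of the left end alone to the rest was 1.66 on chromosome 7 and 2.57 ± 0.970 elsewhere, and that of the right end alone was 2.97 and 2.52 ± 0.777. Without chromosome 4 the means elsewhere were 2.41 ± 0.554 for the left end and 2.43 ± 0.651 for the right.

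**Figure D2:**
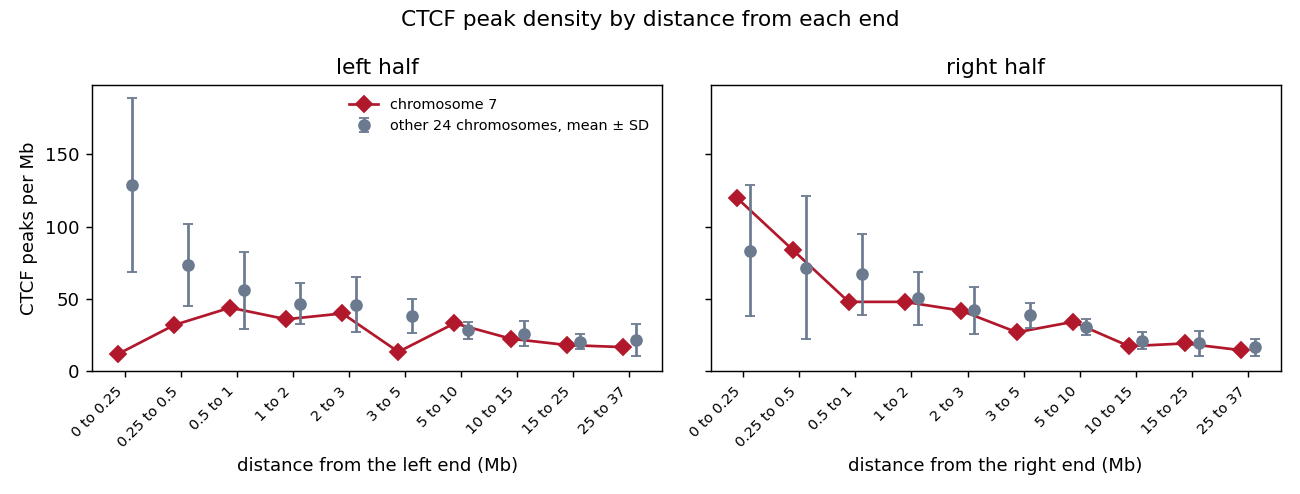
Peaks per Mb (vertical axis) are plotted by distance in Mb from the left end and from the right end, with chromosome 7 as red diamonds and the mean ± SD of the other 24 chromosomes in grey (14 chromosomes in the class beyond 25 Mb). In the outermost 0.25 Mb chromosome 7 had 12 peaks per Mb on the left and 120 on the right, against 129 ± 60.2 and 83.3 ± 45.1 on the other chromosomes.

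Away from the outermost megabases the left flank alternated between dense and sparse stretches, whose bounds were chosen after their values were seen. The first 3 Mb held 33 to 40 peaks in each 1 Mb bin and 109 in all (36.3 per Mb). The next 3 Mb, up to 6 Mb, held only 45, which is 15.0 per Mb (interval 10.9 to 20.1), with 12 to 18 in each bin. From 6 to 10 Mb the density was again 37.0 per Mb (148 peaks, interval 31.3 to 43.5). The comparison of the dip with the other chromosomes reuses part of this stretch, which was picked for its low count, so it is no separate support. Counted 3 to 5 Mb from the left end, chromosome 7 had 13.5 peaks per Mb, against 38.2 ± 11.8 elsewhere, and 1 chromosome was lower. At 5 to 10 Mb it had 33.2 per Mb, against 28.5 ± 5.81, and exceeded 20 of the 24. The right flank had the same order with a shallower dip. Counted 3 to 5 Mb from the right end, chromosome 7 had 27.0 per Mb, against 38.6 ± 8.66, and 1 chromosome was lower. At 5 to 10 Mb from that end it had 34.2 per Mb, against 30.5 ± 5.63, and exceeded 18 of the 24. Scores differed between the stretches of the left flank, with medians of 437 in the first 3 Mb, 358 from 3 to 6 Mb and 348 from 6 to 10 Mb. The dense stretch at 6 to 10 Mb was thus not made of high scores.

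In segments of 10 Mb from the left end, the density was 30.2 peaks per Mb in the first and 20.9 in the second. It was 16.8 from 20 to 30 Mb, 18.2 from 30 to 40 Mb and 12.5 from 40 to 50 Mb (interval 10.4 to 14.9), where it was lowest. Farther right it was 21.3, 25.4 and, in the last 4.08 Mb, 47.1 per Mb (interval 40.7 to 54.2). Peaks were split nearly evenly about the midpoint, with 48.6% to its left, against 51.7 ± 5.995% on the other chromosomes. Median spacing within a segment was 15.8 kb in the first 10 Mb and 51.9 kb between 40 and 50 Mb. Median scores of the segments lay between 324 (10 to 20 Mb) and 380 (40 to 50 Mb). The sparsest segment thus had the highest median score, but this depended on where it was cut. The overlapping stretch from 44 to 52 Mb, with 12.1 peaks per Mb, had a median score of 345.

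**Figure D3:**
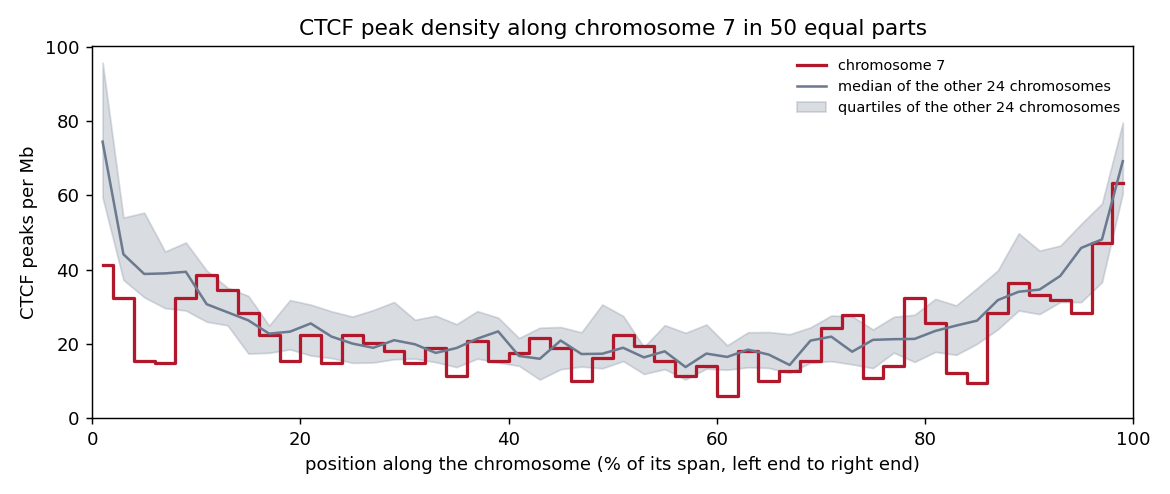
The density of CTCF peaks per Mb is plotted in 50 equal parts of each chromosome's span (2% each), with chromosome 7 as the red line and the median and quartiles of the other 24 chromosomes in grey. Chromosome 7 lay below the median of the others in 35 of the 50 parts, with the widest shortfall at the left end.

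The 74 whole bins of 1 Mb held a median of 19 peaks (interval 17 to 22, quartiles 15 and 26), and every bin had at least 4. The 5 densest bins all lay right of 65 Mb. They began at 73000001 (68 peaks), 72000001 (46), 65000001 (45), 71000001 (44) and 68000001 (42). Next came the bin from 7000001 with 41. More than 5 Mb from either end the 3 densest were those from 65000001, 68000001 and 7000001.

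The sparsest bins lay inside the chromosome. The bin from 44000001 held 4 peaks and that from 47000001 held 5. Bins from 34000001 and 62000001 held 8 each, and those from 29000001 and 57000001 held 9 each. The stretch from 44 to 52 Mb, bounded after its values were seen, had 97 peaks in 8 Mb, or 12.1 per Mb (interval 9.83 to 14.8). Its peaks had a median score of 345.

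Bin counts on chromosome 7 varied less than on most chromosomes. Their variance was 5.85 times their mean, against 10.3 ± 3.99 times on the other chromosomes, of which only chromosome 24 was lower. This ratio can depend on the mean count itself, which was 22.1 on chromosome 7 and 27.8 ± 5.12 elsewhere. The densest bin, with 68 peaks, was set against maxima of 89.3 ± 21.2 elsewhere, and 4 chromosomes had a smaller maximum. With bins within 5 Mb of an end left out, the ratio of variance to mean was 4.12 on chromosome 7 and averaged 5.60 elsewhere, and 7 of 24 chromosomes were lower. Interior bins had a median of 18 peaks on chromosome 7 (64 bins, quartiles 14 and 25) and 20 elsewhere (1014 bins, quartiles 14 and 28). Neighbouring bins were alike to the same degree as on other chromosomes: Pearson's r between a bin and the next was 0.554 over the 74 bins of chromosome 7 and averaged 0.556 ± 0.100 over the others, as a description of counts that share a chromosome and a caller.

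At a finer scale, the 740 windows of 100 kb included 171 (23.1%) with no peak. The other chromosomes had 16.9 ± 8.54% empty windows, and only chromosome 4 had more. The fullest window, from 2800001, held 15 peaks, against 21.1 ± 6.22 in the fullest window of the other chromosomes. Windows from 7800001, 73800001 and 73900001 followed with 13 each. Their median scores were 406, 254, 546 and 341 in the order named, so peak number and score did not go together among these 4 windows.

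Long intervals without a peak were numerous on chromosome 7. It had 20 intervals of more than 300 kb between the centres of neighbouring peaks, more than 23 of the other 24 chromosomes (9.13 ± 9.98). Chromosome 4 had 50, and without it the mean was 7.35 ± 4.99. Whether the length of chromosome 7 accounts for this number was not tested. Scaled to span, 2 chromosomes had more such intervals, where by number 1 had more. Per 10 Mb there were 2.70 such intervals on chromosome 7, against 1.58 ± 1.32 over the 24 and 1.36 ± 0.820 without chromosome 4. More were found on chromosomes 4 (6.53) and 3 (3.05), and close to as many on chromosome 9 (2.64). These intervals took up 10.8% of chromosome 7, against 7.15 ± 9.22% elsewhere and 5.39 ± 3.34% without chromosome 4. Chromosomes 4 (47.6%), 3 (11.8%) and 9 (11.002%) had more.

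The longest interval measured 649 kb, from the peak ending at 29154092 (score 363) to the peak starting at 29802787 (score 341). The second measured 536 kb, between 16938841 and 17474703, and the third 494 kb, between 44396138 and 44889738. Next in length were intervals from 34656600 to 35145673 (489 kb) and from 47147120 to 47633976 (487 kb). These 5 are spread over the interior, at 23.2 to 63.97% of the span. None exceeded 1 Mb, and the longest interval of 7 other chromosomes was longer. The interval of 489 kb had a strong peak with a score of 1157 on its left border, whereas its right border scored 314.

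Among all 20, 5 lay in the first 10 Mb, 5 between 40 and 50 Mb and none beyond 70 Mb. The 40 peaks at their borders scored 338 at the median, against 361 for the other 1605 peaks of chromosome 7, and their median width was 238.5 bp, against 259 bp. A border peak outranked another peak of the chromosome in 46.1% of pairs, where 50% means no difference in rank.

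Neighbouring peaks lay far apart on chromosome 7 by the median and both quartiles of their distances, which a low density favours. The median distance between centres of neighbouring peaks was 22569 bp (interval 20878 to 24475 bp, 1644 pairs), against 17621 ± 2354 bp on the other chromosomes. Chromosome 9, with 23515 bp, was the only chromosome with a larger median, and chromosome 5 had 20939 bp. The lower quartile was 6661 bp and the upper quartile 55999 bp, which was above that of each of the other 24 chromosomes (44309 ± 6283 bp). The closest pair stood 348 bp apart.

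Shares above 50 kb were higher than the means of the other chromosomes and those at 1 to 2 kb and 5 to 20 kb lower. Distances of 50 to 100 kb made up 16.12% of pairs on chromosome 7 (265 pairs), against 13.3 ± 1.63% on the others, the nearest being chromosome 5 with 16.11%. Distances of 100 to 200 kb made up 8.88%, against 6.68 ± 1.45%, and 23 of 24 chromosomes had less. Distances over 200 kb made up 3.28%, against 2.08 ± 1.37%, and 21 chromosomes had less. Among shorter distances, chromosome 7 fell short at 5 to 10 kb, with 9.49% of pairs against 12.7 ± 1.38%, and at 1 to 2 kb, with 4.32% against 5.81 ± 0.784%. In both classes chromosome 7 was below all 24, narrowly at 5 to 10 kb, where the lowest of them had 9.52%. At 1 to 2 kb the lowest had 4.53%. At 10 to 20 kb it had 15.6%, against 17.3 ± 1.43%, and 22 chromosomes had more. It was not set apart under 1 kb, with 6.63% against 7.14 ± 1.05%, or at 2 to 5 kb, with 10.3% against 10.8 ± 1.56%, and 10 chromosomes were lower in each class. The 200 distances over 100 kb were 12.2% of pairs but took up 49.1% of the length between the first and the last peak, against 40.6 ± 9.80% elsewhere.

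**Figure D4:**
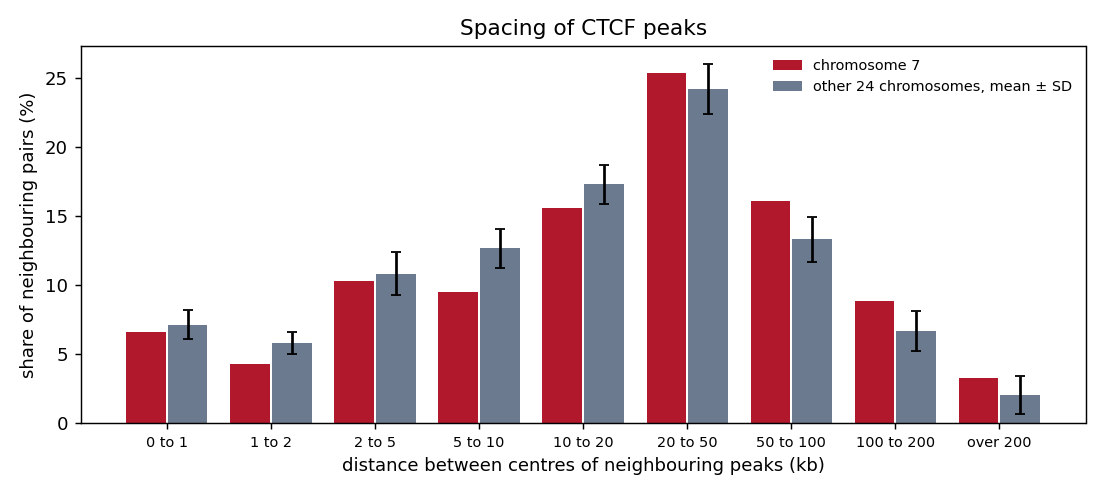
Bars give the share of neighbouring pairs (%) by the distance between their centres in kb, for chromosome 7 in red and the mean ± SD of the other 24 chromosomes in grey. Chromosome 7 had 9.49% of pairs at 5 to 10 kb and 16.1% at 50 to 100 kb, against 12.7 ± 1.38% and 13.3 ± 1.63% on the others.

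Close pairs were infrequent on chromosome 7. Of neighbouring pairs, 180 (10.9%, interval 9.48 to 12.6%) lay within 2 kb, against 12.9 ± 1.59% elsewhere, and only chromosome 9 had a smaller share (9.54%). Among the 18270 highest-scoring peaks the share was 6.22%, against 6.51 ± 1.06%, and 10 chromosomes were lower, so this low place was lost. When peaks within 2 kb were chained, 1324 peaks stayed alone, 115 chains had 2 peaks and 26 had 3 or more. The 26 held 91 peaks, or 5.53% of the chromosome, against 6.82 ± 1.65% elsewhere. Chains that close can be several bound sites or 1 broad site called in pieces, and these cannot be told apart from the list.

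The largest chain had 6 peaks in 6138 bp (64181554 to 64187691), 9.89 Mb from the right end. Its scores ran from 207 to 890 with a median of 520, so it mixed strong with weak peaks. A chain of 3 more peaks (64175055 to 64177678) lay just to its left. A chain of 5 peaks at 2847926 to 2852474 had moderate scores, from 221 to 531, and held 2 broad peaks of 1109 and 1164 bp.

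The other chain of 5 peaks, at 52740009 to 52744197, stood out by score. Its peaks scored 2038, 464, 644, 1513 and 2175 from left to right, and a sixth peak 4.19 kb further on (52747851 to 52748370) scored 1936. These 6 peaks within 8362 bp included 3 of the 5 highest scores of chromosome 7 and 4 scores above 1500. Their nearest neighbours were weak, with scores of 172 at 4.39 kb to the left and 109 at 8.26 kb to the right. The score of 109 is the third-lowest of chromosome 7. No other chromosome had more than 3 peaks above 1500 within 10 kb, and 2 chromosomes had 3. The measure was chosen after this group had been seen.

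The remaining scores of the top 5 belonged to peaks far from this group and from each other. The highest score of the chromosome, 3088, belonged to a peak at 34195677 to 34196245 (summit at 34195833), the sixteenth of the whole list, some way left of the midpoint of the chromosome. Its neighbours were 14.3 and 48.6 kb away. Second was a peak at 6333944 to 6334535 with a score of 2336, in the dense stretch that begins at 6 Mb. The top 5 were all among the 100 highest scores of the list, which makes 5% of those 100, beside the 4.37% of all peaks that chromosome 7 held. Scores above 1000 were held by 53 peaks, or 3.22%, against 3.33% of peaks on the other chromosomes.

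Over all its peaks, chromosome 7 scored slightly low. The authors' score takes whole values on an unstated scale, so it was compared by rank. The median was 360 (interval 352 to 371, quartiles 272 and 508), against chromosome medians of 369.6 ± 8.82 elsewhere, and 2 chromosomes were lower. A peak of chromosome 7 outranked a peak of another chromosome in 48.5% of pairs. The same share lay between 47.1 and 53.0% for each other chromosome against all the rest, so chromosome 7 lay inside the range of the others. The shortfall was in peaks above the upper quartile of all chromosomal peaks (532), which 21.7% of its peaks exceeded, against 25.1% elsewhere. At or below the lower quartile (274) were 26.0%, against 25.2%. Above 1000 the shares were closer, at 3.22% on chromosome 7 and 3.33% elsewhere. Of the 53 such peaks on chromosome 7, however, 4 belong to the group at 52740009 to 52748370.

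Peaks near the ends of chromosome 7 scored higher than those of its rest. Within 2 Mb of an end the median score was 423.5 (192 peaks), against 357 for the rest (1453 peaks). In pairs drawn from both sets, the end peak had the higher score in 59.1%, against 55.8 ± 2.88% on the other chromosomes, 3 of which had a higher share. Of the 2 ends, the left had fewer peaks and the higher scores, although it was denser than the rest (34.5 against 20.7 peaks per Mb). The 69 peaks of the left end had a median of 465 and outranked the rest in 62.8% of pairs. The 123 peaks of the right end had a median of 392 and a share of 57.0%. The highest single score near an end, 1838, was nevertheless on the right, at 73624623 to 73625387.

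Beyond the outermost 2 Mb the score showed no steady trend with distance from the nearer end. The median was 355 from 2 to 5 Mb, 367 from 5 to 10 Mb, 339.5 from 10 to 20 Mb and 364 farther in. The share of peaks above 1000 was 3.65% within 2 Mb, between 2.37 and 2.78% from 2 to 20 Mb and 4.13% beyond 20 Mb. Of the 23 such peaks beyond 20 Mb, 4 belong to the group at 52740009 to 52748370, and without that group the share was 3.45%.

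**Figure D5:**
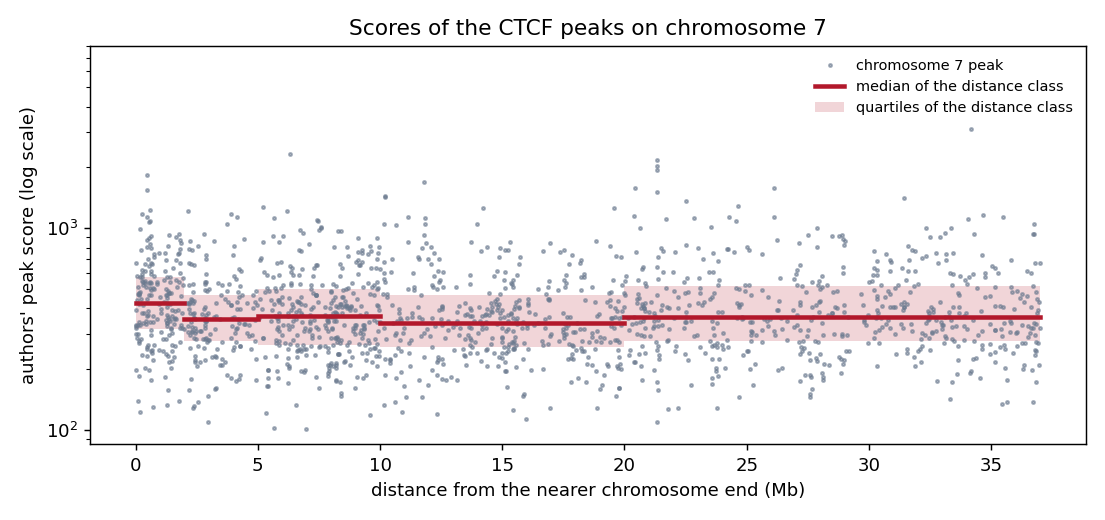
Each point is 1 of the 1645 peaks of chromosome 7, with the authors' score on a log axis against the distance in Mb from the nearer end; red lines and bands give the median and quartiles of each distance class. The median was 423.5 within 2 Mb of an end and between 339.5 and 367 in the classes farther in, while the 5 highest scores lay more than 20 Mb from either end or near 6 Mb.

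Peaks on chromosome 7 were narrow. Their median width of 258 bp (interval 253 to 264 bp, quartiles 222 and 336 bp) was below the median of each other chromosome, which ran from 259 to 270 bp (263.3 ± 2.73 bp). The interval of chromosome 7 reaches into that range. A peak of chromosome 7 was wider than a peak elsewhere in 47.9% of pairs, and for the other chromosomes the share was at least 48.9%. Only 12 peaks (0.729%) exceeded 1000 bp, against 448 (1.28%) on the other chromosomes. Among the 18270 highest-scoring peaks the median width of chromosome 7 was 298 bp and 6 chromosomes were lower, so the low median did not hold among strong peaks.

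The widest peak measured 2163 bp (60407592 to 60409754) with a moderate score of 401. Next were peaks of 1381 bp at 10203664 to 10205044, with a score of 1426, and of 1339 bp at 59687577 to 59688915, with a score of 804. Width and score went together across the chromosome (Spearman's rho = 0.488 over 1645 peaks that share the same libraries), about as on the other chromosomes (mean rho 0.4998 ± 0.0327). Summits lay in the middle of the peaks, at a median of 50.0% of the width (quartiles 42.8 and 57.3%). Widths were larger near the ends, with a median of 284 bp there and 256 bp in the rest, and the left and right ends had medians of 274 and 295 bp.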

How the data were processed

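Per the labels' protocols, chromatin of pooled embryos was fixed in formaldehyde, sheared and precipitated with anti-HA, and sequenced as single-end reads. Per the file headers, peaks were called on combined replicates. Per the submitters' processing notes, the build was danRer10; they also list, without roles, the tools MACS2, Bowtie2 2.2.5, deepTools 3.0.1, Picard 1.45, SAMtools 1.1, cutadapt 1.3, FastQC 0.9.3 and CASAVA. The caller's command, threshold and use of input were not given in the sources used here; depth is unknown. The deposited score runs from 88 to 11089 on an unstated scale, and deposited signal, p and q were 0 in every row. How replicates were combined and where the threshold lay decide which weak sites appear at all.

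From the list, peaks were placed by their centres, and a chromosome's span was measured from base 1 to where its last peak ends, with assembly gaps left in. Ends were 2 Mb, bins 1 Mb, windows 100 kb and close pairs within 2 kb. Ranks were compared as the percentage of pairs in which the first peak exceeded the second, ties split. Python 3.11.15, numpy 2.4.6, scipy 1.17.1, pandas 2.3.3 and matplotlib 3.10.9 were used. The end ratio, the share of close pairs and the rank comparison of end peaks were tested on simulated peaks, and the other computations were not. The region, its measures and the alternatives were chosen with earlier results of these data known. Named regions are the outermost peaks, the 5 highest scores, the 3 widest peaks, the 5 longest intervals, the 5 densest and 5 sparsest bins (6 where tied), the 3 densest interior bins, and the 3 fullest windows and largest chains with ties; other positions were added after their values were seen.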

Additional observations from a re-analysis of the deposited data

How the results depend on the processing

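Of 34 alternatives for the values of chromosome 7, 15 stayed within the interval, count range, test side or, for end scores, 1 SD of the value reported. Some of these outcomes were largely set by construction, so the 15 of 34 is no measure of stability. Leaving out the 5 highest scores could hardly move the median score. Keeping only high scores raises that median, and another pair distance changes the share of pairs. A reversal could be recorded only for left against right and for end scores, and none was seen there. Without chromosome 4 all 6 means of the other chromosomes stayed within 1 SD. Leaving out 1 of 24 values cannot move a mean that far, so this outcome was fixed in advance. The mean number of intervals over 300 kb went from 9.13 ± 9.98 to 7.35 ± 4.99. The 18270 highest-scoring peaks gave by construction a lower density (10.7 per Mb), a bin median of 9, 55 intervals over 300 kb, a median spacing of 48191 bp, 6.22% of pairs within 2 kb, a median width of 298 bp and a median score of 513. With them the ends were 2.96 times as dense as the rest and outranked it in 56.2% of pairs, and the left end held 0.701 of the right (exact p = 0.075). Merging within 500 bp gave 21.0 per Mb, a spacing of 24833 bp and 5.41% of pairs within 2 kb. Pairs within 1 kb made up 6.63% and within 5 kb 21.3%. Ends of 5 Mb gave a ratio of 1.76 and 54.2% of pairs. Alternatives chosen after seeing the data were merging within 10 kb, which gave an end ratio of 1.67 and a left count of 0.690 of the right (exact p = 0.085), ends measured from the first peak, and leaving out the 5 highest scores or the group of 6 peaks. The cause of these shifts was not tested where the construction does not show it. Over all alternatives the exact p of left against right ran from 1.2e-05 to 0.085. With peaks merged within 500 bp, chromosome 7 kept its place as lowest in end density (45 per Mb) and median width (259 bp) and had the latest second peak; merged within 10 kb, 4 chromosomes had sparser ends. Merged within 10 kb, the first 250 kb held 3 peaks and chromosome 25 also had 3. No paired analysis was possible because every value stems from pooled replicates, and the 11 alternatives that need single replicates were not run. Absence of a peak shows only that none was detected at an unknown depth.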

Other observations

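The most isolated peaks of chromosome 7 had low scores, in comparisons chosen after seeing the data. The 164 peaks with no other peak within 50 kb (9.97%, against 7.61 ± 2.07% on the other chromosomes; SD, n = 24) scored 334.5 at the median and were 243.5 bp wide. They outranked the remaining peaks of the chromosome in 44.8% of pairs, against 47.1 ± 2.99% elsewhere, and 4 chromosomes had a lower share. Low scores of isolated peaks were not particular to chromosome 7, since the share was above 50% on only 3 of the other 24 chromosomes. At the other extreme, the 321 peaks with a neighbour within 2 kb scored 372 at the median, were 272 bp wide and outranked the remaining peaks in 51.1% of pairs. Elsewhere that share was 47.7 ± 2.63%, above 50% on 6 of 24 chromosomes, and 22 chromosomes were below chromosome 7. Peaks whose nearest neighbour lay 2 to 10 kb or 10 to 50 kb away outranked the remaining peaks in 51.3% and 50.1% of pairs, so only the class beyond 50 kb was below 50%. The difference from other chromosomes was not tested.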
